A study of Mus musculus with 4 samples.

Results

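The Polycomb repressive complex genes described here are 10 genes of subunits of Polycomb repressive complexes 1 and 2: Ezh2, Ezh1, Eed, Suz12, Jarid2, Mtf2, Phf19, Phf1, Bmi1 and Ring1. They were selected by name, as subunits of these complexes, and no threshold on their values was used. The choice was made with earlier results of these data known. All 10 were present among the 24087 genes of the deposited expression table. Poly(A)-selected RNA was sequenced from splenic Treg cells, the Foxp3-expressing CD4+ T cells that restrain immune responses, of C57BL/6 mice with or without the histone methyltransferase Setd2. The control group (CTRL, 2 libraries) came from Foxp3Cre-YFPSetd2f/+ mice and the deficient group (KO, 2 libraries) from littermate Foxp3Cre-YFPSetd2f/f mice. Both groups carried the Cre-YFP fusion driven by Foxp3, so deletion was limited to cells that express or had expressed Foxp3, and the controls carried 1 floxed Setd2 allele and were not wild type. Mice for in vivo work in the study were 6 to 12 weeks old. Each library held about 1000000 cells sorted as CD3+CD4+YFP+ and pooled from 2 mice, so the spread between libraries is that between pools and not between single animals.

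Polycomb proteins keep developmental genes silent through 2 histone marks. Polycomb repressive complex 2 (PRC2) methylates lysine 27 of histone H3 (H3K27), and Polycomb repressive complex 1 (PRC1) places ubiquitin on lysine 119 of histone H2A and compacts chromatin. H3K36me3, the mark that Setd2 makes on transcribed gene bodies, hinders PRC2 on the same histone tail, and Ezh2 is known to be needed by activated Treg cells to hold their identity. These points are background and were not measured in these libraries, which hold RNA levels only.

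The libraries held at least 30574662 (CTRL 1) to 33183060 (KO 2) reads assigned to genes, as recovered from the ratios of each gene's values between libraries. CTRL 1 stood apart by the number of genes with a value above 0, at 19100 against 15913 to 16410 in the other 3 libraries. Setd2 itself was at 23.4 and 25.3 FPKM (fragments per kilobase of gene, scaled to the depth of the library) in CTRL and at 21.3 and 19.5 in KO (log2 fold change -0.24, limma adjusted p = 0.097), a value for the whole gene that does not show the floxed part separately. Foxp3 was at 112 to 140 FPKM in all 4 libraries. The summed FPKM of 7 myeloid markers was 173 and 103 in CTRL and 239 and 84.4 in KO, and that of 5 erythroid markers 22.7 and 4.16 in CTRL and 38.5 and 11.4 in KO, in each group higher in the library numbered 1. The 6 B cell markers summed to 21.8 to 41.0 FPKM and the 4 plasma cell markers to 75.4 to 122. Most of the plasma cell sum was Xbp1, at 53.7 to 70.0 FPKM. Jchain was at 13.6 to 41.0 FPKM and Sdc1 at most at 0.519. The 2 CD8 markers summed to 8.49 to 11.4 FPKM, with Cd8a at most at 0.326. The 5 Treg markers summed to 1068 to 1178 FPKM and the 5 T cell markers to 1544 to 1688, and no gene of these 7 lists passed the test. In such bulk samples fewer cells of a type and less RNA per cell cannot be told apart.

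All 10 genes were expressed in every library. Phf1, a Polycomb-like subunit of PRC2, had the highest level, with a mean over the 4 libraries of 86.4 FPKM. This level is uncertain, since the gene Cuta overlaps 39.3% of the exon bases of Phf1 on the other strand. The core subunits Ezh2 (34.4 FPKM), Suz12 (32.2) and Eed (31.2) came next, and their ranges over the libraries overlapped. Ezh1 followed at 22.2 FPKM and Bmi1 at 19.9, then Jarid2 at 16.5 and Mtf2 at 13.7. Neighbours from Ezh1 to Mtf2 overlapped in their ranges. Ring1 (6.99 FPKM) and Phf19 (3.59) were at the bottom, each below the gene above it in all 4 libraries, and the highest mean was 24.1 times the lowest. The steps from Phf1 to Ezh2 and from Eed to Ezh1 were likewise larger than the spread, with no overlap between the genes.

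**Figure D1:**
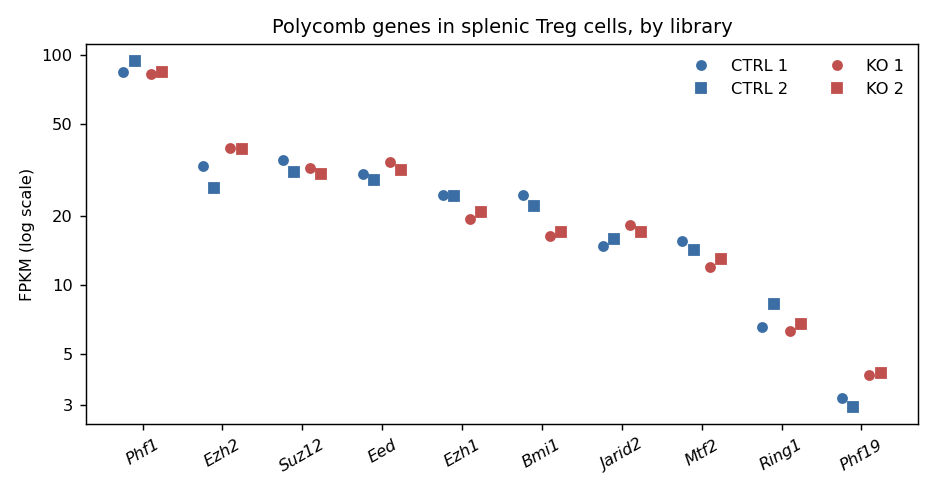
Level of each Polycomb gene in each library, in FPKM on a log axis, with genes ordered by their mean. Blue points are CTRL and red points KO, circles replicate 1 and squares replicate 2. The KO points of Bmi1 (16.2 and 16.9) lie below both CTRL points (24.5 and 22.0), and those of Suz12, Phf1 and Ring1 mix with CTRL.

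Of the 10 genes, 1 changed between KO and CTRL: Bmi1 fell, and none rose. All 10 passed the filter of at least 1 FPKM in at least 2 libraries, in each group, and were tested by limma on log2(FPKM + 1) with p-values adjusted over the 11399 genes tested. The share of members called, 1 of 10, was close to the background of 9.75% for all genes tested (581 or 5.10% higher, 530 or 4.65% lower). At an unadjusted p under 0.05, 5 of the 10 passed against 34.7% of all genes. The 2 groups did not overlap for 7 members, of which 4 were higher and 3 lower in KO, and the same held for 64.5% of all genes. The median log2 fold change was -0.083 over the members and -0.022 over all genes tested. The median standard error over all genes was 0.087 on the log2 scale with 2 libraries a group, and intervals are given below for members that did not pass. With any 1 library left out, at most 1 gene in each direction passed over all genes tested.

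**Figure D2:**
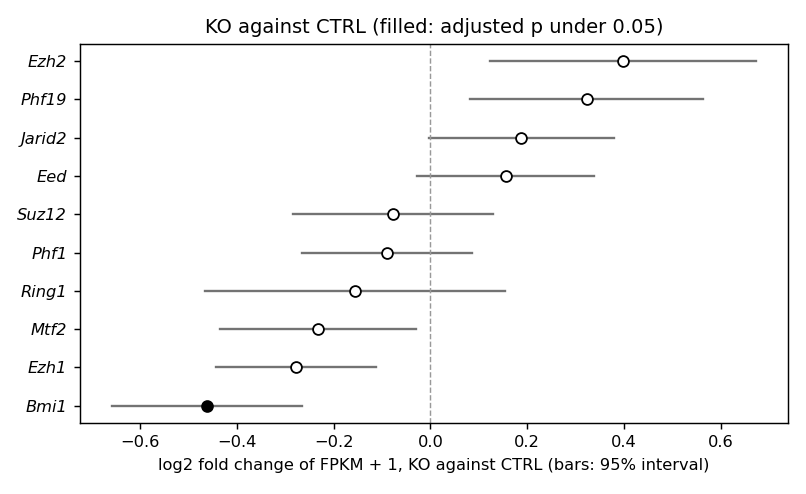
Log2 fold change of FPKM + 1 in KO against CTRL for each Polycomb gene, with bars for the 95% interval and a filled point where the adjusted p is under 0.05. Bmi1 at -0.46 is the filled point, and the intervals of Ezh2, Phf19, Mtf2 and Ezh1 also lie to 1 side of 0.

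To place the genes on the genome, their promoter windows were read from RefSeq on GRCm38.p6, the build the values were mapped to (mm10). Windows of 300 bases, 250 before and 50 after the annotated start, were found for all 10 genes, 12 windows in all. They held 45.7 to 74.3% G and C and 2 to 41 CpG dinucleotides, against medians of 52.7% and 7 over 32851 windows. Matches were sought on both strands to the E2F-type letters TTTCCCGC, TTTCGCGC, TTTGCCGC and TTTGGCGC, bound by E2F factors that drive S-phase genes, and to the E-box CACGTG, bound by Myc and Max family proteins. E2F-type letters were in 3 of the 12 windows, those of Ezh2, Suz12 and Phf19, and in 2.26% of all windows. The E-box was in 1 of the 12 windows, that of Bmi1, and in 7.15% of all windows. All these letter runs hold a CpG, and the shares over all windows were not matched for CpG content. The 4 matches are shown because these genes include the only member that changed and the PRC2 genes described next. Each stretch is given on the strand of its gene with the match in capitals, and a match is a run of letters and not a shown binding site.
Bmi1 (chr2:18676768-18676917, + strand, 250 to 101 bases before the start): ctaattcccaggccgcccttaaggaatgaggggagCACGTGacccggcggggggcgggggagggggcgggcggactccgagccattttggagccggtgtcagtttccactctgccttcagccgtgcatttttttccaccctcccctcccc
Ezh2 (chr6:47595011-47595040, − strand, from 10 bases before the start to base 20 after it): ttgggttgctgcgTTTGGCGCtcggtccgg
Phf19 (chr2:34914077-34914226, − strand, 250 to 101 bases before the start, match on the opposite strand): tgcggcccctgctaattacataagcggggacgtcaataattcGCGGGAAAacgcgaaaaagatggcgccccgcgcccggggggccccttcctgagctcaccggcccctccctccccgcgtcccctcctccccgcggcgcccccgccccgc
Suz12 (chr11:79992856-79993005, + strand, 250 to 101 bases before the start): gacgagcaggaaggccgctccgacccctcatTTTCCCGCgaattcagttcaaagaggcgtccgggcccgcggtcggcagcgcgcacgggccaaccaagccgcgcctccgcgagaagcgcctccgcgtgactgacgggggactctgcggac
The match in Ezh2 lay at bases 4 to 11 after the start, and the others lay over 200 bases before it.

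The catalytic subunits of PRC2, Ezh2 and Ezh1, stood in opposite directions in KO, and neither passed the test. Ezh2, the more active methyltransferase and the one linked to dividing cells, was at 32.7 and 26.5 FPKM in CTRL, against 39.4 and 38.9 in KO. Both KO libraries were above both CTRL libraries, and the CTRL pair lay far apart while the KO pair nearly coincided. Averaged over the group, KO was at 39.1 ± 0.336 FPKM (SD, n = 2) and CTRL at 29.6 ± 4.41, so that KO was 32.2% higher, a log2 fold change of 0.40 (SE 0.11, 95% interval 0.12 to 0.67, limma adjusted p = 0.073). The size depended on the control kept: without CTRL 2 it was 0.25 and without CTRL 1 it was 0.55, with limma adjusted p = 0.163 and 0.103. Of 10 other settings, 2 put Ezh2 past the threshold, a replicate block (limma adjusted p = 0.034) and voom on recovered reads (limma adjusted p = 0.047), and limma adjusted p ran up to 0.149 over the 10.

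Ezh1, the paralog found in resting and non-dividing cells, was at 24.6 and 24.2 FPKM in CTRL, against 19.3 and 20.6 in KO. Here the CTRL libraries were the close pair and both KO libraries were below them. The group means were 24.4 ± 0.223 FPKM in CTRL and 19.95 ± 0.988 in KO (SD, n = 2), a difference of -18.2% and a log2 fold change of -0.28 (SE 0.065, 95% interval -0.44 to -0.11, limma adjusted p = 0.058). Of 10 other settings of the fit, 3 put Ezh1 past the threshold, with limma adjusted p from 0.035 to 0.105 over the 10.

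Within a library the ratio of Ezh2 to Ezh1 does not depend on depth or on scaling. It was 1.33 and 1.09 in CTRL and 2.04 and 1.88 in KO, so Ezh2 exceeded Ezh1 in all 4 libraries and by more in both KO libraries. The ratio was 1.63 times higher in KO, a difference of 0.70 on the log2 scale (exact permutation test, two-sided, p = 0.333, the smallest that 2 against 2 libraries allow). This was 1 of 6 paralog ratios compared, and none could reach 0.05 by this test. As a share of their summed FPKM, Ezh2 made up 57.1 and 52.2% in CTRL and 67.2 and 65.3% in KO. The sum itself was 57.3 and 50.7 FPKM in CTRL and 58.6 and 59.5 in KO.

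Genes of proliferation, a list chosen with earlier results of these data known, were set beside the Ezh2 values. Of 20 genes of DNA replication and mitosis, 16 rose in KO, against 5.10% of all genes tested, and none fell, with a median log2 fold change of 0.78 against -0.022 for all genes, from 0.24 for Pcna (limma adjusted p = 0.109) to 1.08 for Plk1 (limma adjusted p = 0.035). Mki67, the gene of the Ki-67 antigen of cycling cells, was at 31.8 and 24.3 FPKM in CTRL, against 45.1 and 44.7 in KO (log2 fold change 0.67, limma adjusted p = 0.043). The summed FPKM of the 20 genes was 671 and 566 in CTRL and 943 and 927 in KO. The part of these genes in the values of Ezh2 and the other Polycomb genes was not tested.

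The non-catalytic core of PRC2 showed no call. Eed, the subunit that reads trimethylated H3K27 and stimulates the enzyme, was at 30.4 and 28.5 FPKM in CTRL, against 34.3 and 31.6 in KO. Both KO libraries were higher, but the gap between the groups was smaller than the distance between the 2 KO libraries (log2 fold change 0.16, SE 0.071, 95% interval -0.027 to 0.34, limma adjusted p = 0.193). An antisense transcript, E230029C05Rik, overlaps 6.82% of the exon bases of Eed and was at no more than 0.462 FPKM.

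Suz12, the scaffold on which PRC2 assembles, was at 35.1 and 31.1 FPKM in CTRL, against 32.3 and 30.2 in KO. The groups overlapped, and the log2 fold change was -0.077 (SE 0.081, 95% interval -0.28 to 0.13, limma adjusted p = 0.543). Its sign turned without CTRL 1, to 0.0067. Of the histone-binding partners in this core, Rbbp4 was at 37.3 and 36.6 FPKM in CTRL, against 41.6 and 42.2 in KO (log2 fold change 0.18, limma adjusted p = 0.090). Rbbp7 was at 78.0 and 69.9 FPKM in CTRL, against 85.7 and 83.8 in KO (log2 fold change 0.20, limma adjusted p = 0.124). Both also serve chromatin assembly and deacetylase complexes, and neither passed.

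PRC2 takes up accessory subunits in alternative forms. Jarid2, which together with Aebp2 forms the PRC2.2 version and helps to bring PRC2 to its targets, was at 14.8 and 15.9 FPKM in CTRL, against 18.3 and 16.9 in KO. The KO libraries were both above CTRL by a small margin (log2 fold change 0.19, SE 0.075, 95% interval -0.0029 to 0.38, limma adjusted p = 0.148). Aebp2 was at 28.8 and 25.6 FPKM in CTRL, against 28.1 and 27.6 in KO, where the groups overlapped (log2 fold change 0.035, limma adjusted p = 0.777).

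The 3 Polycomb-like proteins Phf1, Mtf2 and Phf19 define the other version, PRC2.1, and carry a Tudor domain, a kind of domain that can bind H3K36me3. Mtf2 was at 15.5 and 14.2 FPKM in CTRL, against 11.99 and 12.9 in KO, with both KO libraries lower (log2 fold change -0.23, SE 0.079, 95% interval -0.44 to -0.029, limma adjusted p = 0.113). The gene Tmed5 overlaps 6.93% of the exon bases of Mtf2 on the other strand and was at 23.7 to 27.5 FPKM.

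Phf19 was the least expressed member, at 3.21 and 2.95 FPKM in CTRL, against 4.06 and 4.14 in KO. Each group was tight and the KO libraries were both higher, by 33.2% of the control mean (log2 fold change 0.32, SE 0.094, 95% interval 0.083 to 0.56, limma adjusted p = 0.084). The pseudocount of 1 FPKM shrinks the fold change of a gene this low, and with a pseudocount of 0.1 it was 0.41.

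Phf1 was at 84.5 and 93.7 FPKM in CTRL, against 82.7 and 84.6 in KO, where the groups overlapped (log2 fold change -0.089, SE 0.069, 95% interval -0.26 to 0.087, limma adjusted p = 0.408). This value is uncertain, since Cuta lies on the other strand over 39.3% of the exon bases of Phf1 and was itself at 81.7 and 82.0 FPKM in CTRL, against 96.3 and 112 in KO. The use of strand in counting is not given in the sources used here, so reads of the 2 genes in the shared part cannot be told apart.

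Among the Polycomb-like genes, the groups stood furthest apart in the balance of Mtf2 and Phf19. The ratio of Mtf2 to Phf19 was 4.82 and 4.81 in CTRL and 2.95 and 3.13 in KO, 0.631 times the control, with close values within each group and no overlap (exact permutation p = 0.333). The ratio of Phf19 to Phf1 was 0.0380 and 0.0314 in CTRL and 0.0492 and 0.0489 in KO (exact permutation p = 0.333). Mtf2 to Phf1 overlapped between the groups, at 0.183 and 0.151 in CTRL and 0.145 and 0.153 in KO (exact permutation p = 0.667). Phf1 made up 81.9 to 84.6% of the family's summed FPKM in all 4 libraries, and Mtf2 and Phf19 made up the rest. The shares and the ratios to Phf1 carry the limit from Cuta given above.

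**Figure D3:**
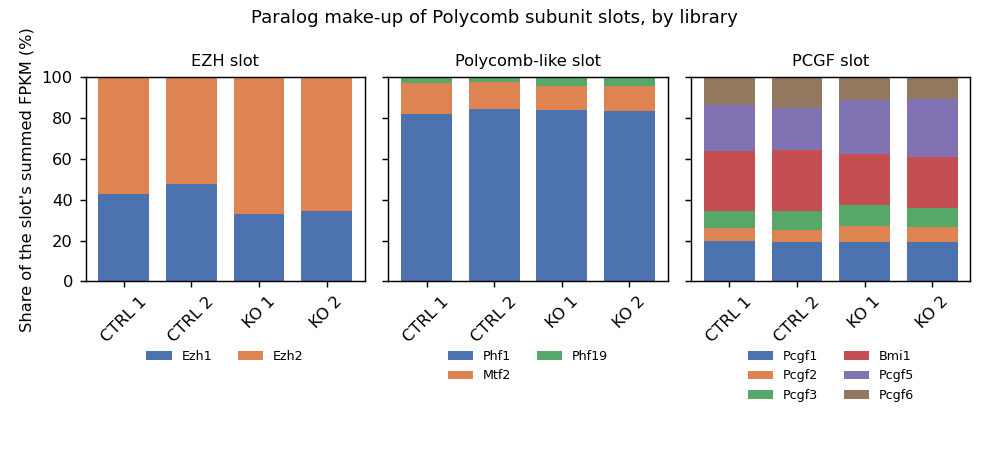
Share of each paralog in the summed FPKM (%) of its subunit slot, for each of the 4 libraries. From left to right the slots are the EZH enzymes, the Polycomb-like proteins and the PCGF proteins. Ezh2 takes 67.2 and 65.3% of its slot in KO against 57.1 and 52.2% in CTRL, and Bmi1 25.1 and 24.6% against 29.1 and 29.5%.

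Bmi1 was the member that changed. It encodes PCGF4, a partner of the RING1 ubiquitin ligases in canonical PRC1, and is best known for holding the Cdkn2a locus silent in stem cells and lymphocytes. Bmi1 was at 24.5 and 22.0 FPKM in CTRL, against 16.2 and 16.9 in KO. Both KO libraries were lower than both CTRL libraries, and the gap between the groups was larger than the distance within either. The mean fell by 28.7%, from 23.3 ± 1.75 to 16.6 ± 0.50 FPKM (SD, n = 2), a log2 fold change of -0.46 (SE 0.076, 95% interval -0.66 to -0.27, limma adjusted p = 0.038). Of 10 other settings of the fit, 8 kept this call, and limma adjusted p ran from 0.018 to 0.088. With 1 library left out the log2 fold change stayed between -0.54 and -0.39 while the call was lost, with limma adjusted p = 0.132 when CTRL 1 was left out, 0.140 for CTRL 2, 0.122 for KO 1 and 0.113 for KO 2. Of the 100-base stretches in Bmi1 transcripts, 6.52% also occur in another annotated gene, Gm5946, and how the authors counted such reads is not given in the sources used here.

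**Figure D4:**
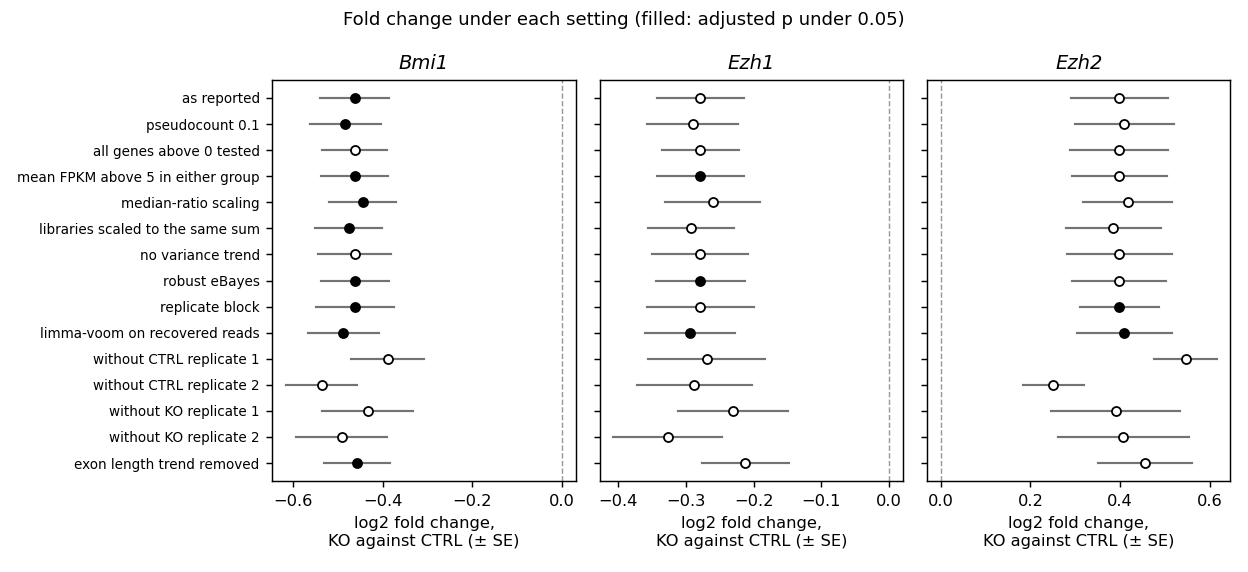
Log2 fold change in KO against CTRL for Bmi1, Ezh1 and Ezh2 under the reported setting and each alternative, with bars for 1 standard error and filled points where the adjusted p is under 0.05. Every value of Bmi1 and Ezh1 is below 0 and every value of Ezh2 above 0, and with 1 library left out no point is filled.

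The other PCGF proteins, each of which sets up its own version of PRC1, were compared with Bmi1. Pcgf6, the subunit of the variant complex that also holds Mga and Max, fell from 11.6 and 11.4 FPKM in CTRL to 7.09 and 7.34 in KO (log2 fold change -0.61, SE 0.070, limma adjusted p = 0.035). Pcgf2, the paralog closest to Bmi1, was at 5.64 and 4.398 FPKM in CTRL, against 5.23 and 5.03 in KO, with overlapping groups (log2 fold change 0.034, limma adjusted p = 0.870). Pcgf1 was at 16.5 and 14.3 FPKM in CTRL and 12.4 and 13.3 in KO (limma adjusted p = 0.132). Pcgf3 stayed between 6.57 and 7.16 FPKM and Pcgf5 between 15.3 and 19.7 over the 4 libraries, and neither passed (limma adjusted p = 0.446 and 0.606). So 2 of the 6 PCGF genes, Bmi1 and Pcgf6, were lower in KO by the test, where 4.65% of all genes tested were.

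The ratio of Bmi1 to Pcgf2 was 4.34 and 5.01 in CTRL and 3.10 and 3.37 in KO, 0.693 times the control and without overlap (exact permutation p = 0.333). The summed FPKM of the 6 PCGF genes was 84.3 and 74.6 in CTRL and 64.6 and 68.9 in KO, lower in both KO libraries. Bmi1 made up 29.1 and 29.5% of that sum in CTRL and 25.1 and 24.6% in KO, and was the largest PCGF gene in both CTRL libraries, while Pcgf5 was the largest in both KO libraries at 26.5 and 28.6%.

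Ring1, one of the 2 ubiquitin ligases of PRC1, was at 6.58 and 8.29 FPKM in CTRL, against 6.32 and 6.75 in KO. CTRL 2 was the high library and the groups overlapped (log2 fold change -0.16, SE 0.12, 95% interval -0.46 to 0.15, limma adjusted p = 0.410). Its more abundant paralog Rnf2, which encodes RING1B, was at 26.3 and 23.9 FPKM in CTRL, against 21.1 and 22.3 in KO (log2 fold change -0.20, limma adjusted p = 0.126). The ratio of Ring1 to Rnf2 was 0.251 and 0.346 in CTRL and 0.3003 and 0.303 in KO, so both KO values lay between the CTRL values (exact permutation p = 1). Rnf2 held 74.3 to 80.0% of the pair's sum in all 4 libraries.

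Beyond the 10 members, 56 other genes of Polycomb complexes and their opponents were listed and found, and 52 passed the filter. Of these, 2 rose and 5 fell in KO, 13.5% of those tested against 9.75% of all genes, with a median log2 fold change of 0.0031. By complex, none of 6 other PRC2 genes passed. Of 16 further PRC1 core genes 4 fell, where 4.65% of all genes tested did. This list pooled the RING, PCGF, CBX, PHC and SAM-domain genes, so it included Pcgf6 of a variant complex. Of 18 other genes of variant PRC1, 2 rose and 1 fell. None of 10 genes of the PR-DUB complex, which removes the ubiquitin that PRC1 adds, and neither of the 2 H3K27 demethylases passed.

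Besides Pcgf6, the PRC1 core genes that fell were Cbx7, Cbx6 and Scml4. Cbx7 encodes the chromodomain subunit that binds methylated H3K27 and was the most expressed gene of its list, at 104 and 105 FPKM in CTRL and 80.1 and 82.2 in KO (log2 fold change -0.36, SE 0.051, limma adjusted p = 0.035). Cbx6, another chromodomain subunit, was at 14.7 and 15.6 FPKM in CTRL and 10.2 and 11.4 in KO (log2 fold change -0.46, SE 0.082, limma adjusted p = 0.041). Scml4, a gene related to the SAM-domain Polycomb gene Scm of the fly, was at 18.2 and 16.9 FPKM in CTRL and 12.03 and 12.2 in KO (log2 fold change -0.50, SE 0.070, limma adjusted p = 0.035). The groups did not overlap for any of these genes, as for 64.5% of all genes tested. The calls of Cbx7 and Cbx6 ended without a variance trend (limma adjusted p = 0.053 for both), and that of Cbx6 also with the exon length trend removed (limma adjusted p = 0.059).

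**Figure D5:**
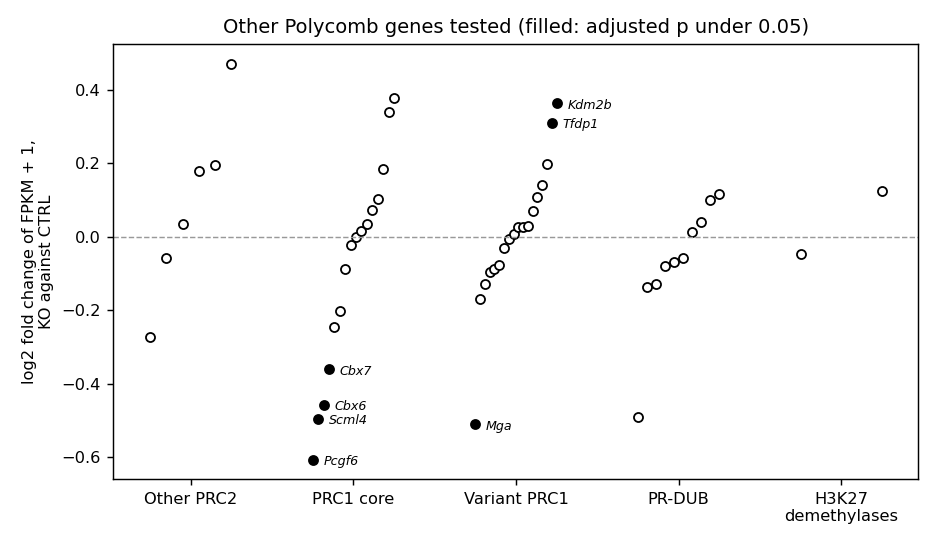
Log2 fold change of FPKM + 1 in KO against CTRL for the 52 other Polycomb genes tested, grouped by complex along the horizontal axis and sorted by value within each. Filled and named points have an adjusted p under 0.05: 2 lie above 0, both in variant PRC1, and 5 below 0. Of these 5, 4 are in the PRC1 core list, which includes Pcgf6.

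In variant PRC1, Kdm2b, the H3K36 demethylase that brings the PCGF1 complex to CpG islands, rose from 19.2 and 19.95 FPKM in CTRL to 26.0 and 24.96 in KO (log2 fold change 0.36, SE 0.062, limma adjusted p = 0.040). Tfdp1, the DP1 partner of E2F factors including E2f6, rose from 38.2 and 38.5 to 46.5 and 49.1 FPKM (log2 fold change 0.31, SE 0.057, limma adjusted p = 0.042). Mga, the DNA-binding scaffold of the PCGF6 complex, fell from 10.4 and 10.3 to 6.87 and 7.06 FPKM (log2 fold change -0.51, SE 0.070, limma adjusted p = 0.035), as did its partner Pcgf6. Max, their partner, did not fall: it was at 82.8 and 79.9 FPKM in CTRL and 90.35 and 96.6 in KO (log2 fold change 0.20, limma adjusted p = 0.091). Without a variance trend the calls of Kdm2b and Tfdp1 ended (limma adjusted p = 0.054 and 0.064). Over the 7 genes called, those of the PRC1 core included, limma adjusted p was 0.096 to 0.158 when 1 library was left out and 0.086 to 0.095 when the filter was lifted to test every gene above 0, so each call ended there. Tfdp1 acts mainly in cell cycle transcription outside Polycomb complexes. Part of Kdm2b (10.4% of its 100-base stretches) and of Tfdp1 (7.56%) also occurs in other annotated genes. Hdac1, the most expressed gene of this list and shared with many repressor complexes, was at 95.1 to 102 FPKM with overlapping groups (log2 fold change 0.030, limma adjusted p = 0.748). Of its 100-base stretches, 24.9% also occur in other annotated genes, so its level carries the same limit.

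The most expressed PR-DUB gene, Ogt, which encodes the enzyme that adds O-GlcNAc to nuclear proteins, was at 84.6 and 73.0 FPKM in CTRL and 50.4 and 61.3 in KO. Both KO libraries were lower but far apart from each other (log2 fold change -0.49, SE 0.12, limma adjusted p = 0.062). A replicate block and voom on recovered reads put Ogt past the threshold (limma adjusted p = 0.039 and 0.036). The H3K27 demethylases overlapped between the groups. Kdm6a was at 17.9 and 21.5 FPKM in CTRL and 20.2 and 17.8 in KO (limma adjusted p = 0.802), and Kdm6b was at 37.9 and 42.8 in CTRL and 50.6 and 38.2 in KO (limma adjusted p = 0.590).

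Genes that Polycomb complexes classically silence were mostly without expression. Of 41 such genes (39 Hox genes included), 39 were under 1 FPKM in all 4 libraries and 14 had a value of 0 throughout. Cdkn2a, the textbook target of Bmi1, was at 0.859 and 0.712 FPKM in CTRL, against 1.45 and 1.44 in KO, with both KO libraries higher (log2 fold change 0.45, SE 0.13, limma adjusted p = 0.079). These Cdkn2a values came from at least 16 and 14 reads in CTRL and 29 and 29 in KO. Cdkn2b, on the same list, was at 0.503 and 0.249 FPKM in CTRL, against 0.407 and 0.243 in KO. The groups overlapped for Cdkn2b, which was below the filter and not tested. Hoxb4 was the only Hox gene to pass the filter, at 1.68 and 1.26 FPKM in CTRL and 2.05 and 1.95 in KO (log2 fold change 0.29, SE 0.13, limma adjusted p = 0.202). Neither Cdkn2a nor Hoxb4 passed the test, and Cdkn2a entered it only through the KO libraries, since both CTRL values were under 1 FPKM.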

How the data were processed

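RNA of 4 libraries of sorted splenic Treg cells (2 CTRL, 2 KO) was analysed from the FPKM table that the authors deposited. Per the labels and methods, 150-base paired reads were mapped to mm10 with HISAT2 (version 2.2.1) and counted per gene with featureCounts (version 2.0.1), and edgeR (version 3.34.0) was the authors' test. The gene lengths, the annotation version and the use of strand and of multiply mapped reads are not given in the sources used here. FPKM compares levels between genes per length, but a change in 1 abundant gene shifts all others.

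The unit was not counts, so limma (version 3.58.1, R 4.3.3; trended eBayes, two-sided) was fitted to log2(FPKM + 1) of the 11399 genes with at least 1 FPKM in at least 2 libraries, with genotype as the only term, Benjamini-Hochberg adjustment over all of them and a threshold of 0.05. With this pseudocount the fold changes of low genes come out too small. The relative depths of the libraries came from genes under 0.3 FPKM. Whole reads of each gene were the smallest whole numbers that matched the ratios of its depth-scaled values across libraries, at a tolerance of 0.002. This gave whole numbers for 100% of 19888 genes above 0. The share is a weak check, since a gene above 0 in 1 library matches by construction. For genes above 0 in few libraries, and for highly expressed genes, a match can arise by chance. The depths are lower bounds, since a common factor cannot be seen. Paralog ratios were tested over libraries by an exact permutation test. The code was tested on simulated data, where more of the calls fell in unchanged genes than the threshold implies. Exon overlaps and shared 100-base stretches came from GENCODE on GRCm38, and promoter windows from RefSeq on GRCm38.p6.

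Alternatives changed the pseudocount, filter, scaling, variance model and replicate block, used voom on recovered reads, and left out each library. The removal of the exon length trend was chosen after seeing the data. Named genes were the members, Setd2, every other Polycomb gene past the threshold, the most expressed gene of each list, direct paralogs and partners, Cdkn2a, Hox genes that passed the filter, and Mki67 with the extremes of the proliferation list. Cdkn2b was given beside Cdkn2a. The members and lists were chosen with earlier results of these data known.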

Additional observations from a re-analysis of the deposited data

How the results depend on the processing

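Among all genes, 581 were higher and 530 lower in KO. With all genes above 0 tested, both counts fell to 0 (0 members, 0 other Polycomb genes), where more low genes enter the adjustment. Without a variance trend 315 were higher, with 0 members lower, and 0 other Polycomb genes higher and 3 lower. Voom on recovered reads gave 878 higher and 1009 lower, 1 member higher (Ezh2), 2 lower (Bmi1 and Ezh1) and 4 other Polycomb genes higher. A mean above 5 FPKM and robust eBayes each put 2 members lower, and robust eBayes put 4 other Polycomb genes higher. With the exon length trend removed 321 genes were lower, and Kdm6a, not past the test, turned to 0.025. The ratio of Mtf2 to Phf19 was -0.56 on the log2 scale with 1 FPKM added to each gene. Where these settings differ the cause was not tested.

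The labels do not say what a replicate number marks. Across genes, the departures from the group means of libraries with equal numbers correlated with Pearson 0.342 and Spearman 0.055, and with 2 pairs this does not settle whether the numbers pair the libraries. A replicate block in the fit gave 968 genes higher and 805 lower, 1 member (Ezh2) higher and 4 other Polycomb genes higher.

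With 1 library left out, which leaves the lone library of its group assumed to vary like the other group, 0 to 1 genes were higher, 0 to 1 lower, and members and other Polycomb genes had 0 calls. Signs turned only in genes not past the test, with log2 fold changes from -0.16 to 0.0067 for Suz12, -0.046 to 0.12 for Aebp2, -0.017 to 0.077 for Hdac1, -0.17 to 0.081 for Kdm6a, -0.074 to 0.32 for Kdm6b, -0.12 to 0.18 for Pcgf2 and -0.044 to 0.25 for Pcgf5. Of the other values for single genes, 343 kept direction and side of the threshold, 46 lost a call and 7 gained one. Scaling moved the median of all genes from -0.022 to between -0.035 and -0.0056.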
